A study of Mus musculus with 8 samples.

Results

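Chemokines are small secreted proteins that guide leukocytes along gradients, and their receptors are G protein-coupled receptors on the surface of the migrating cell. In graft rejection they draw T cells and myeloid cells into the graft, and activated T cells secrete several of them as well. The 47 genes described here are 30 chemokine ligands and 17 chemokine receptors, taken by name from the 18820 genes that had a probe set with exactly 1 gene symbol. A gene with several probe sets is represented by the one whose mean over all arrays was highest, so each gene has 1 value per array.

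Mouse T cells, sorted as CD3-positive, were collected on day 30 from grafts of tissue made from human embryonic stem cells, and total RNA was hybridised to 8 whole-transcript arrays. The hosts in both groups were wild-type CD1 mice, an outbred strain. In the rejecting group (4 arrays) the host received no treatment, and in the tolerant group (4 arrays) it had been injected with antibodies against CD4, CD8 and CD40L. The labels number the arrays 1 to 4 in each group and do not say whether each came from its own mouse, so p-values measure the spread between arrays, which may be technical. Fewer cells of a type and less RNA per cell cannot be told apart in such bulk samples.

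Values are RMA values, taken as log2, and every difference below is tolerant minus rejecting on that scale. Levels of different genes are not ranked against each other, because each probe set has its own sensitivity. A background line was drawn for each array from 1182 probe sets of odorant and pheromone (vomeronasal) receptors, which T cells should not express, and it was set at their 99th percentile, so 1% of such silent genes lie above it. The lines lay between 1.15 and 1.35 on arrays 1 and 2 and between 0.99 and 1.14 on arrays 3 and 4. The same value can therefore cross the line on one array and not on another. A value under the line cannot be told from background, and a small difference there does not show that expression was alike.

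The arrays fell into a set with signal and a set with little. On arrays 1 and 2 of both groups, 2.52% to 5.57% of all genes lay above the line, and on arrays 3 and 4 it was 9.12% to 16.3%. Means were higher on arrays 3 and 4 than on 1 and 2 for 21 of 30 ligands and 9 of 17 receptors. The share over all genes was 52.7%. The median shifts of ligands, receptors and all genes were 0.080, 0.012 and 0.014. Among the T cell markers, 13 of 16 were measured and Cd3e, the epsilon chain of CD3, Cd5 and Cd8b1 lay above the line on all 4 arrays numbered 3 and 4. Cd3d, Cd247 and Cd28 were never above it. Because both sets hold 2 rejecting and 2 tolerant arrays, tolerant and rejecting samples are compared over all 8 arrays, then in each set alone.

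**Figure D1:**
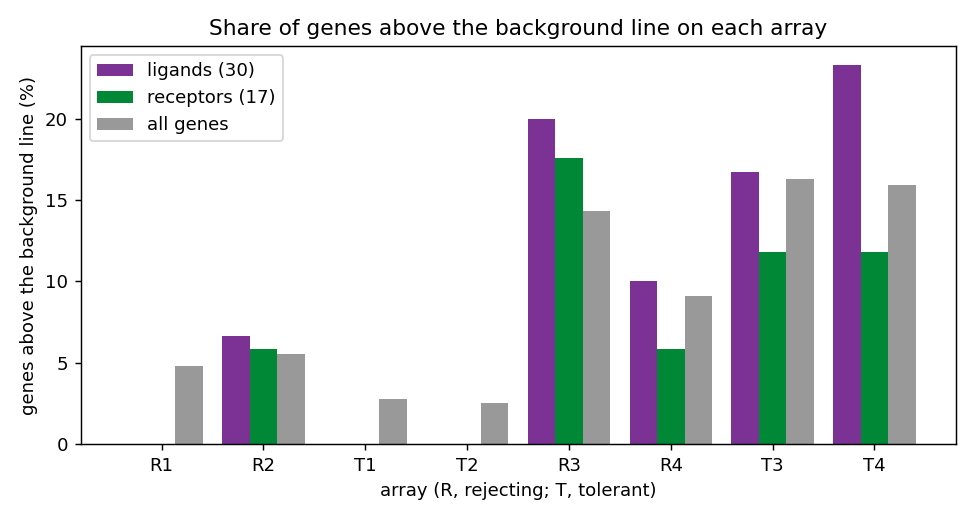
Share of chemokine ligands, of chemokine receptors and of all genes above the background line (percent, vertical axis) on each array (R, rejecting; T, tolerant). On arrays numbered 1 and 2, 0 ligands and 0 receptors lay above the line except on rejecting array 2, and on arrays 3 and 4 between 3 and 7 of the 30 ligands did.

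Most chemokine genes were at background. Of the 30 ligands, 21 were never above the line in the 8 arrays, and of the 17 receptors 12 did, against 74.4% of all genes. On at least 2 arrays, 6 ligands were above the line (Ccl1, Ccl3, Ccl5, Ccl8, Cxcl1 and Cxcl9), as were 2 receptors (Ccr7 and Ccr8), against 16.2% of all genes. Ccl5, Cxcl1 and Cxcl9 were above it on all 4 arrays numbered 3 and 4, and 0 receptors were. The 3 ligands Ccl6, Ccl28 and Cxcl10 and the 3 receptors Cxcr1, Cxcr3 and Cx3cr1 crossed it on exactly 1 array. Members above the line numbered 9 of 47 (19.1%) against 14.3% on rejecting array 3 and 9 of 47 (19.1%) against 15.9% on tolerant array 4. They numbered 4 of 47 (8.51%) against 9.12% on rejecting array 4 and 7 of 47 (14.9%) against 16.3% on tolerant array 3.

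The upstream sequences of 3 of these ligands are given because they differ in their matches to 3 short motifs, described below. Cxcl1 and Cxcl9 lay above the line on all 4 arrays with signal, and Cxcl10 is the neighbour of Cxcl9. Each run is the 250 bases before the annotated start, from RefSeq on GRCm38.p6, and capitals mark matches to a motif on either strand. Cxcl1 is on the + strand at chr5:90890995-90891244, Cxcl9 on the - strand at chr5:92328080-92328329 and Cxcl10 on the - strand at chr5:92348890-92349139.
Cxcl1: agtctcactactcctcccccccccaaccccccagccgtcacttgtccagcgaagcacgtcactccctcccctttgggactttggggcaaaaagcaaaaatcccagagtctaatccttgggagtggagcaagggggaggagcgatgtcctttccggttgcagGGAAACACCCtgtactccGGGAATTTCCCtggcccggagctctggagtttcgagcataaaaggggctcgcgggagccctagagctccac
Cxcl9: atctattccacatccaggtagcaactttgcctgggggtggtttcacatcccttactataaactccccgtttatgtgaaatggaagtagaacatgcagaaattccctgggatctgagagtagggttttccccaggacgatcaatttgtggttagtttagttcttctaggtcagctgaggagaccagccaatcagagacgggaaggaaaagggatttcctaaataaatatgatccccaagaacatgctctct
Cxcl10: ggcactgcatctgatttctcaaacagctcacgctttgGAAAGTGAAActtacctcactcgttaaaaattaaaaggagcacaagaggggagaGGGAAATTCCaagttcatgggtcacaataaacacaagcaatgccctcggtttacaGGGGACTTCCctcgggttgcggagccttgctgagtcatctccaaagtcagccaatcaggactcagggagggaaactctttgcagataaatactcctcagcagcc

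The motifs were searched on both strands. The first was a kappaB element, GGG and TTCC with any 3 bases between, the second an interferon-stimulated response element, GAAA and GAAA with any 2 bases between, and the third an interferon-gamma activated site, TTC and GAA with any 3 bases between. Cxcl1 held 3 matches to the first, of which GGGAATTTCC and GGAATTTCCC overlap on opposite strands. Cxcl10 held 2 matches to the first, GGGAAATTCC and GGGGACTTCC, and 1 to the second, GAAAGTGAAA. Cxcl9 held 0 matches to the 3 motifs in this window, which says only that these letters are not there. Of the 47 members, 35 had an upstream sequence in the table, 21 ligands and 14 receptors. The first motif was found for 6 ligands and 2 receptors, against 4.65% of 32817 upstream sequences of this length. The second was found for 3 ligands (Ccl19, Cxcl10 and Cxcl14) and 0 receptors, against 2.97%, and the third for 2 ligands and 1 receptor, against 7.01%.

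Over all 8 arrays, tolerant and rejecting T cells were not separated by any chemokine gene in the test. Limma, adjusted over the 21218 probe sets with 1 symbol, called 0 of 47 members, and it called 0 (0%) of all probe sets. At an unadjusted p under 0.05 there were 1 ligand and 1 receptor, against 2.89% of probe sets. The ligands had a median difference of 0.0025, with 15 of 30 higher in tolerant cells, and the receptors 0.048, with 9 of 17 higher. The median over all genes was 0.0005, with 50.2% higher. Groups did not overlap for 0 ligands and for 2 receptors, Ccr6 and Ccr9, both lower in tolerant cells, against 1.13% of probe sets.

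On the arrays numbered 3 and 4, members were again called by limma in 0 of 47 cases, against 0.0518% of probe sets. The largest difference was that of Ccl5, and 3 ligands (Ccl5, Ccl3 and Ccl8) were higher by more than 0.5, against 2.59% of probe sets. Of these, Ccl3 and Ccl8 were above the line on tolerant arrays only. The lowest difference of a ligand was -0.43. Ligands higher in both tolerant than in both rejecting arrays numbered 11 of 30 (36.7%), against 19.3% of probe sets, and lower ones 5 of 30 (16.7%), against 20%. Of these 16 ligands, 10 were never above the line. Receptors without overlap numbered 5 higher and 4 lower of 17, and 8 of these 9 were never above the line. At an unadjusted p under 0.05 there were 6 ligands and 1 receptor, against 7.21% of probe sets. The median difference was 0.012 over the ligands, -0.049 over the receptors and -0.0064 over all genes.

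**Figure D2:**
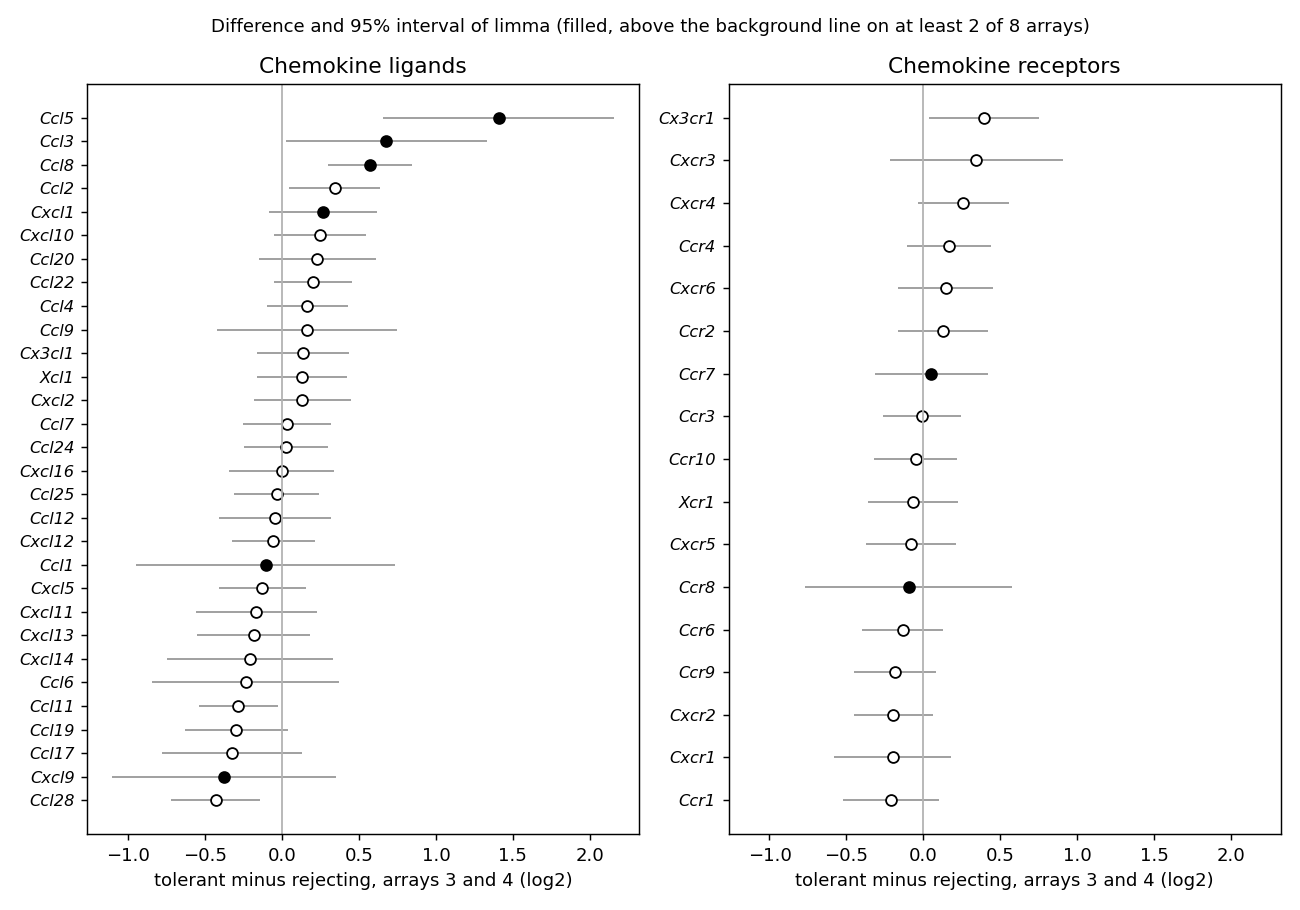
Tolerant minus rejecting difference on arrays 3 and 4 (log2, horizontal axis) with limma's 95% interval for each of 30 ligands and 17 receptors, 2 against 2 arrays. Filled points are members that passed the background line at least 2 times in 8 arrays. Ccl5, at 1.41, stands to the right of all others, and no member passed the adjusted test.

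Ccl5 (RANTES), a chemokine that memory and cytotoxic T cells make, was the chemokine with the clearest signal. On rejecting arrays 1 to 4 it read 0.55, 1.27, 2.71 and 1.79, and on tolerant arrays 1 to 4 it read 1.23, 1.09, 3.57 and 3.74. It was high on all 4 arrays numbered 3 and 4, and there both tolerant values lay above both rejecting values. Over all 8 arrays the groups overlapped, with means of 1.58 ± 0.91 in rejecting and 2.41 ± 1.45 in tolerant cells (SD, n = 4 each) and a limma adjusted p of 1. Within arrays 3 and 4 the difference was 1.41 with a 95% interval of 0.66 to 2.16 and a limma adjusted p of 0.352. With each array left out in turn it ranged from 0.95 to 1.87. The mean of the 4 arrays with signal lay 1.92 above that of the other 4, the highest such shift of any member, and 1.29% of all genes shifted by more than 1.

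In the T cell marker list 0 of 13 members passed the test on arrays 3 and 4. Cd3e read 1.51 and 2.36 on rejecting and 2.75 and 3.82 on tolerant arrays 3 and 4. That is a tolerant excess of 1.36 (limma adjusted p = 0.572), the largest of the list. Cd5 and Cd8b1 had differences of 0.36 and 0.26, and the median over the 13 was 0.07. Of the list, 10 of 13 read higher and Cd4, Lat and Cd3d read lower (-0.14, -0.13 and -0.03). Its summed level was 11.8 to 13.6 in rejecting and 13.4 to 17.5 in tolerant samples. A summed level, here and below, adds the log2 values of all measured members, those under the line included. It is not a total amount of RNA. The 6 markers of natural killer cells, which also make Ccl5, were never above the line. Their summed level was 2.08 to 2.47 in rejecting and 1.61 to 2.11 in tolerant samples. The part of T cell content in the Ccl5 difference was not tested.

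Ccl3, Ccl4, Ccl6 and Ccl9, its neighbours in the genome, carried little signal. Ccl3 (MIP-1alpha), secreted by activated T cells and macrophages, read 0.32, 0.78, 0.89 and 0.70 on the rejecting arrays and 0.23, 0.66, 1.08 and 1.86 on the tolerant arrays 1 to 4. It was above the line on tolerant arrays 3 and 4 alone, and the latter stood well apart from the other 7 arrays. Its difference within that set was 0.68, with an interval of 0.025 to 1.33 (limma adjusted p = 0.67), and without tolerant replicate 4 it was 0.29. Ccl4 (MIP-1beta), which is made alongside Ccl3, averaged 0.54 ± 0.13 in rejecting and 0.64 ± 0.12 in tolerant cells (SD, n = 4 each). Ccl6 and Ccl9, ligands of CCR1 in rodents, had differences of -0.24 and 0.16 on arrays 3 and 4. The receptor Ccr1, present on myeloid cells, had one of -0.21.

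Ccl8 and Ccl1 are the mouse ligands of CCR8, a receptor of regulatory and type 2 helper T cells. Ccl8 read 0.77, 0.37, 0.67 and 0.53 on the rejecting arrays and 0.18, 0.42, 1.19 and 1.15 on the tolerant arrays 1 to 4. It crossed the line only on tolerant arrays 3 and 4, so its presence among the members above background came from the group where it was high. Its difference there was 0.57 with an interval of 0.30 to 0.85, and it had the smallest unadjusted p of the 47 members (0.00256; limma adjusted p = 0.277). On arrays 1 and 2 the difference was -0.27, where all 4 values were under the line, and the interaction between set and group did not pass (limma adjusted p = 0.433).

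Macrophages are known to make Ccl8, Ccl3 and Ccl2, and 0 of 11 measured macrophage markers passed the test on arrays 3 and 4. Of these, 8 had a higher mean in tolerant samples, and Itgam, Cd14 and Fcgr1 had differences of -0.15, -0.05 and -0.02. The summed level of all 11 was 5.89 to 10.5 in rejecting and 14.7 to 16.2 in tolerant samples. Lyz2, the lysozyme of myeloid cells, read 1.41 and 0.23 against 3.30 and 3.14, the largest difference of the list (2.40). C1qb and C1qc had differences of 2.00 and 0.83, and the median over the 11 was 0.34. Adgre1, Fcgr1, Cd14 and Itgam were never above the line. The fibroblast list had 8 of 8 members higher, with a summed level of 11.2 to 13.2 against 18.1 to 18.2. It includes Thy1, which mouse T cells also carry and which read 1.91 and 1.89 against 1.87 and 2.42, with overlap. Lum, Pdgfra and Pdgfrb were never above the line. In the kidney tubule list 8 of 8 were higher and 2 passed the test, against 0.0518% of probe sets. They were Slc12a3 and Calb1 (limma adjusted p = 0.0359 and 0.044). The summed level of the list was 6.87 to 7.33 against 17.5 to 22.1, and Lrp2 was never above the line. The interaction between set and group passed for Slc12a3 and for Dcn of the fibroblast list (limma adjusted p = 0.00543 and 0.0289), against 0.0566% of probe sets. The part of these cells in the chemokine differences was not tested.

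Ccl1, made by activated T cells, and its receptor Ccr8 did not differ between the groups beyond the spread of the arrays. Ccl1 read 0.96, 1.02, 1.72 and 1.04 on the rejecting arrays and 0.89, 1.25, 0.87 and 1.68 on the tolerant arrays 1 to 4, so 1 array of each group was high. Ccr8 read 0.63, 1.53, 1.26 and 1.18 on the rejecting arrays and 0.75, 0.59, 0.72 and 1.53 on the tolerant arrays. It was above the line on 3 of 4 rejecting arrays and 1 of 4 tolerant arrays. Its difference over all 8 arrays was -0.25 with an interval of -0.80 to 0.29 (limma adjusted p = 1).

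Cxcl9 and Cxcl10 are interferon-induced ligands of CXCR3, the receptor of type 1 effector T cells. Cxcl9 (MIG) read 0.98, 0.08, 1.19 and 2.05 on the rejecting arrays and 0.40, 0.36, 1.11 and 1.37 on the tolerant arrays 1 to 4. The highest value was that of rejecting array 4, and the groups overlapped. Its difference within arrays 3 and 4 was -0.38 with an interval of -1.10 to 0.35, and without rejecting replicate 4 it was 0.05. Cxcl10 (IP-10) read 0.74 and 0.93 on rejecting and 1.03 and 1.13 on tolerant arrays 3 and 4, and it crossed the line on the last of these alone. Its difference was 0.25 (limma adjusted p = 0.71), and 0.16 to 0.34 with each array left out in turn. Cxcl11, the third ligand of the receptor, had -0.17. Cxcr3 itself read 0.36 and 0.62 against 0.53 and 1.14, and only tolerant array 4 was above the line. In the list of inducers of chemokine genes, 0 of 23 measured members passed on these arrays, and Ifngr1, a chain of the interferon-gamma receptor, had a difference of 0.34.

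Cxcl1 (KC), a ligand of CXCR2 that attracts neutrophils, lay above the line on all 4 arrays numbered 3 and 4 and on rejecting array 2. It read 1.17, 1.34, 1.34 and 1.34 on the rejecting arrays and 1.27, 1.18, 1.45 and 1.77 on the tolerant arrays 1 to 4. Tolerant arrays 3 and 4 held the highest values, and the difference on arrays 3 and 4 was 0.27 with an interval of -0.085 to 0.62. It was 0.11 without tolerant replicate 4 and 0.43 without tolerant replicate 3. Cxcl2 and Cxcl5, which act on the same receptor, had differences of 0.13 and -0.13 and were never above the line. Cxcr1 and Cxcr2, the receptors, had -0.20 and -0.19. The 6 measured neutrophil markers were never above the line, with a summed level of 2.30 to 2.66 in rejecting and 1.58 to 1.60 in tolerant samples of arrays 3 and 4.

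**Figure D3:**
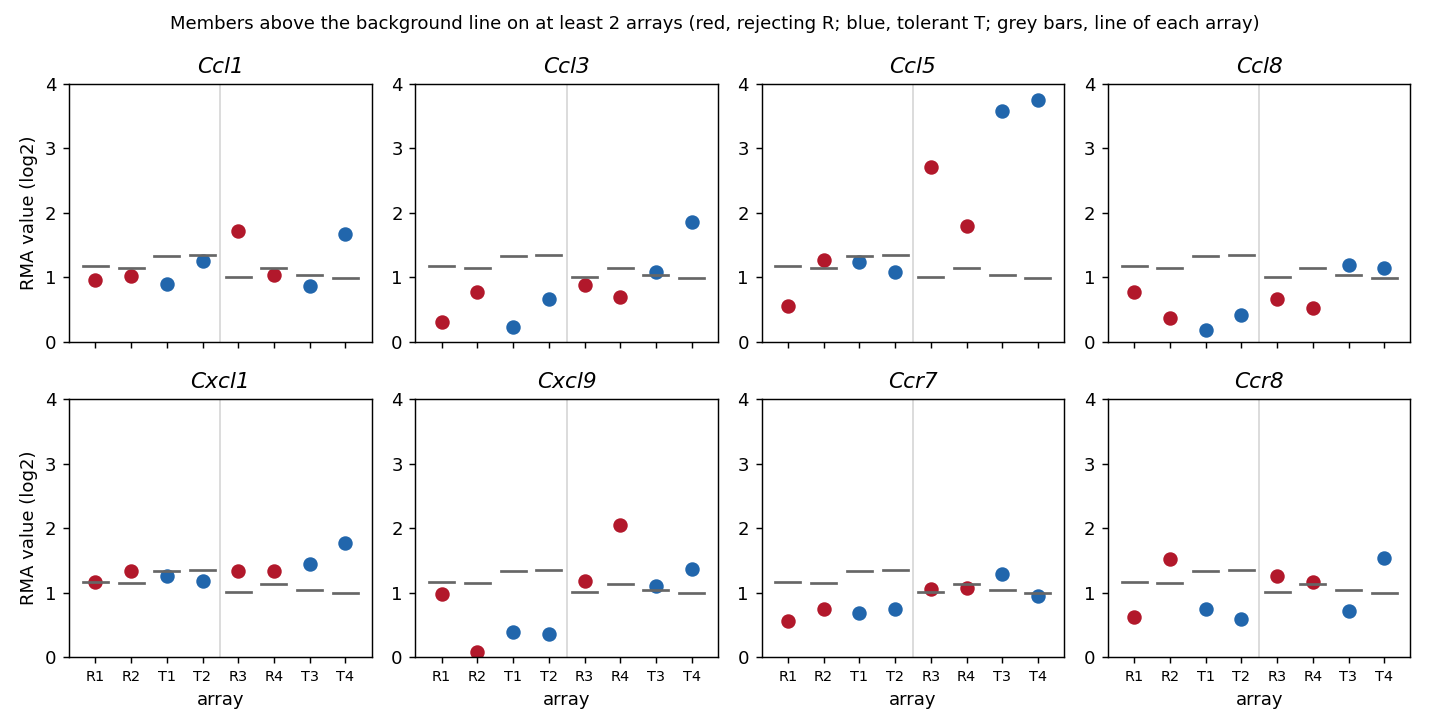
RMA value (log2, vertical axis) of Ccl1, Ccl3, Ccl5, Ccl8, Cxcl1, Cxcl9, Ccr7 and Ccr8 by array (R, rejecting, red; T, tolerant, blue). Grey bars are the background line of each array. Ccl5 reaches 3.57 and 3.74 on tolerant arrays 3 and 4, and Cxcl9 reaches its highest value, 2.05, on rejecting array 4.

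The monocyte and tissue ligands were at background. Ccl2 (MCP-1), the main ligand of CCR2, read 0.44 and 0.32 on rejecting and 0.64 and 0.80 on tolerant arrays 3 and 4. These values did not overlap, and all lay under the line (difference 0.34, limma adjusted p = 0.614). Ccl7 and Ccl12, which bind the same receptor, had differences of 0.03 and -0.05. Ccl11 and Ccl24, the eotaxins, had -0.29 and 0.03. Ccl22, a ligand of CCR4, read 0.43, 0.49, 0.33 and 0.32 on the rejecting arrays and 0.49, 1.01, 0.52 and 0.53 on the tolerant arrays 1 to 4. Its groups overlapped narrowly, with a difference of 0.25 over all arrays (unadjusted p = 0.0862, limma adjusted p = 1). Cxcl12, which holds cells through CXCR4, averaged 0.66 ± 0.07 in rejecting and 0.63 ± 0.03 in tolerant cells (SD, n = 4 each). Cxcl16, the membrane-bound ligand of CXCR6, averaged 0.74 ± 0.13 and 0.73 ± 0.11, and Xcl1, made by CD8 T cells for XCR1-bearing dendritic cells, 0.60 ± 0.13 and 0.59 ± 0.30 (SD, n = 4 each). Cx3cl1, Ccl20, Ccl25, Cxcl13 and Cxcl14 had differences of 0.13, 0.23, -0.03, -0.18 and -0.21 on arrays 3 and 4. Ccl25 has 2 probe sets, and the one with the lower mean had 0.03.

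Ccl28, a mucosal ligand of CCR10, was the ligand with the smallest unadjusted p over all 8 arrays. It read 0.79, 0.67, 1.09 and 0.94 on the rejecting arrays and 0.67, 0.39, 0.53 and 0.64 on the tolerant arrays 1 to 4. It crossed the line on rejecting array 3 alone. Its difference was -0.32 over all 8 arrays (unadjusted p = 0.0229, limma adjusted p = 1) and -0.43 on arrays 3 and 4 (limma adjusted p = 0.499). Ccl19, a lymphoid ligand of CCR7, averaged 0.66 ± 0.21 in rejecting and 0.47 ± 0.09 in tolerant cells (SD, n = 4 each), with differences of -0.19 over all arrays and -0.30 on arrays 3 and 4. It is uncertain, since 5 probe sets carry its symbol, with differences from -0.30 to -0.09 on arrays 3 and 4, and a pair of them hold equal values.

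Among receptors, Ccr7 and Ccr8 were the only ones of 17 above the line on at least 2 arrays. Ccr7, which takes naive and central memory T cells to lymph nodes, read 0.56, 0.75, 1.06 and 1.08 on the rejecting arrays and 0.69, 0.75, 1.30 and 0.95 on the tolerant arrays 1 to 4. Values were higher on arrays 3 and 4 of both groups, and the groups overlapped. Its difference was 0.06 over all 8 arrays, with an interval of -0.31 to 0.43, and 0.05 on arrays 3 and 4, with one of -0.31 to 0.42.

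Cxcr6, Cxcr4, Cxcr5, Ccr2 and Ccr4 were never above the line in either group. Cxcr6, which marks resident memory T cells, averaged 0.20 ± 0.09 in rejecting and 0.31 ± 0.09 in tolerant cells (SD, n = 4 each). Cxcr4, the receptor of Cxcl12, averaged 0.40 ± 0.14 and 0.52 ± 0.09, and Cxcr5, of follicular helper T cells, 0.25 ± 0.11 and 0.30 ± 0.18. Ccr2, of monocytes and effector T cells, averaged 0.48 ± 0.13 and 0.53 ± 0.19. Ccr4, of type 2 helper and regulatory T cells, read 0.38, 0.33, 0.46 and 0.52 on the rejecting arrays and 0.39, 1.15, 0.72 and 0.59 on the tolerant arrays 1 to 4, with only tolerant array 1 inside the rejecting range (difference 0.29, limma adjusted p = 1). Cx3cr1, of cytotoxic effector T cells and macrophages, read 0.71 and 0.49 on arrays 3 and 4 of the rejecting and 1.12 and 0.87 on those of the tolerant group. Its difference was 0.40 (unadjusted p = 0.0356, limma adjusted p = 0.639), the smallest unadjusted p of a receptor on these arrays, and only tolerant array 3 was above the line. Cxcr4 followed, at 0.32 and 0.26 against 0.45 and 0.65, and Cxcr2, at 0.24 and 0.22 against 0.05 and 0.02, without overlap and under the line.

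Ccr9 and Ccr6 were lower in all 4 tolerant than in all 4 rejecting samples, at levels under the line. Ccr9, the gut-homing receptor for Ccl25, read 0.51, 0.77, 0.36 and 0.33 on the rejecting arrays and 0.19, 0.10, 0.10 and 0.22 on the tolerant arrays 1 to 4. Its difference was -0.34 with an interval of -0.59 to -0.09 (unadjusted p = 0.0133, limma adjusted p = 1). Ccr6, the receptor for Ccl20 on type 17 helper T cells, read 0.40, 0.65, 0.35 and 0.40 against 0.23, 0.30, 0.28 and 0.20, a difference of -0.20 (limma adjusted p = 1). With every value under the line, neither gene was shown to be expressed. Ccr3, Ccr10 and Xcr1 had differences of 0.11, -0.18 and -0.01 over all 8 arrays.

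On the arrays numbered 1 and 2, limma called 0 members and 0 (0%) of all probe sets. There 2 ligands (Ccl5 and Cxcl1) and 1 receptor (Ccr8) lay above the line on at least 1 array, each on rejecting array 2. The ligands with the smallest unadjusted p were Ccl17, a ligand of CCR4, at 0.33 and 0.48 in rejecting against 0.71 and 0.78 in tolerant arrays, Cxcl14, at 0.69 and 0.40 against 0.73 and 0.90, and Cx3cl1, at 0.80 and 0.63 against 0.49 and 0.47. The receptors were Ccr9, with a difference of -0.50, Cxcr1, at 0.59 and 1.02 against 0.37 and 0.56, and Ccr4, with 0.42. At an unadjusted p under 0.05 there were 0 ligands and 1 receptor, against 5.15% of probe sets. Each of these 6 was under the line on all 4 arrays. Groups did not overlap for 4 ligands higher and 2 lower, against 17.2% and 17.1% of probe sets, and for 4 receptors higher and 3 lower. The test of whether the difference itself differed between the sets called 0 members, against 0.0566% of probe sets, with a limma adjusted p of 0.667 for Ccl5. At an unadjusted p under 0.05 it had 3 ligands and 0 receptors, against 7.13%.

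**Figure D4:**
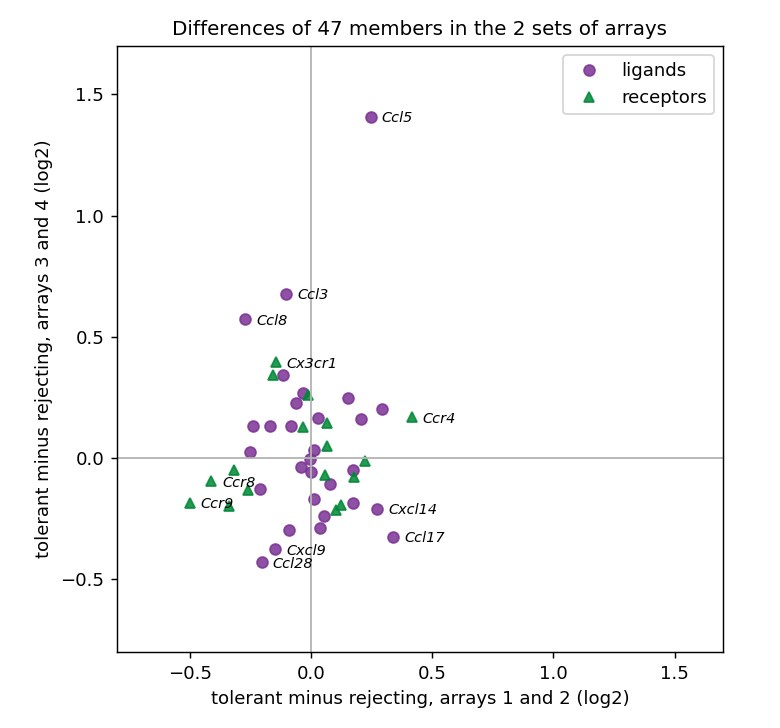
Tolerant minus rejecting difference of the 47 members on arrays 3 and 4 (log2, vertical axis) against that on arrays 1 and 2 (log2, horizontal axis), ligands as circles and receptors as triangles. Ccl5 lies at 1.41 and 0.25, Ccl8 at 0.57 and -0.27, and Ccl3 at 0.68 and -0.10, the first value of each being that of arrays 3 and 4.

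Many chemokine genes stand next to each other in the genome, and differences of both signs occurred among neighbours. Of the 46 members in the RefSeq table of protein-coding genes, 29 fell into 8 clusters, in which members lie at most 5 genes apart. In the cluster of Ccl5, Ccl9, Ccl6, Ccl3 and Ccl4 on chromosome 11, 4 of 5 were higher on arrays 3 and 4, with differences from -0.24 to 1.41. In the cluster of Ccl2, Ccl7, Ccl11, Ccl12, Ccl8 and Ccl1 on the same chromosome, 3 of 6 were higher, with differences from -0.29 to 0.57. The receptor cluster of Ccr9, Cxcr6, Xcr1, Ccr1, Ccr3 and Ccr2 on chromosome 9 had 2 of 6 higher, from -0.21 to 0.14, and 6 of 6 were never above the line.

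In the list of G proteins, arrestins and their effectors, which carry the signal of chemokine receptors into the cell, 30 of 33 genes were measured and 0 passed the test. Above the line on all 4 arrays numbered 3 and 4 were 7 of them, against 6.52% of all genes. Gnai2 (probe set 10596704), the inhibitory G alpha subunit through which chemokine receptors signal in lymphocytes, read 1.77 and 1.69 on rejecting and 2.57 and 3.08 on tolerant arrays 3 and 4. Gnb1, a G beta subunit, read 1.51 and 2.05 against 2.91 and 3.02, and Rhoa, a small GTPase of cell motility, 1.00 and 2.13 against 2.93 and 3.16. Rhoa has 2 probe sets, and only the one with the higher mean is given. In each of the 3 genes both tolerant values lay above both rejecting ones. Their differences were 1.09, 1.18 and 1.48 (limma adjusted p = 0.229, 0.224 and 0.436), and Rap1b, a GTPase of integrin activation, had 0.42. In the list 21 of 30 were higher, with a median difference of 0.09. Over all genes 48.3% were higher on arrays 3 and 4, with a median of -0.0064. Over the genes above the line on at least 2 of these arrays the median was 0.096.

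The remaining lists of the pathway had 0 members passing in the 3 comparisons. Among regulators of G protein signalling 4 of 7 were higher on arrays 3 and 4, and Rgs3, Rgs2, Rgs18 and Rgs14 had differences of -0.38, 0.17, -0.07 and 0.03. The value of Rgs3 is that of the higher-mean one of its 2 probe sets. Among atypical receptors, which take up chemokines without signalling through G proteins, 2 of 4 were higher, with 0.33 for Ackr3, -0.29 for Ccrl2, 0.23 for Ackr2 and -0.12 for Ackr1. Among adhesion and egress molecules 17 of 23 were higher. There the integrin chains Itga4 and Itgb7 had 0.40 and -0.28, and the integrin ligands Icam1 and Madcam1 had 0.56 and -0.36. Itga4 and Madcam1 were never above the line, and Itgb7 was above it on 1 array. Of the inducers 14 of 23 were higher, with 1.02 for Jak1, a kinase of interferon receptors (limma adjusted p = 0.224), 0.24 for Rela and 0.21 for Relb. Of the proteases and glycosaminoglycan carriers 7 of 9 were higher, with 0.39 for Hspg2, 0.34 for Sdc4, 0.17 for Adam17 and 0.24 for Mmp2. Also never above the line were Rgs2, Rgs18, Ackr1, Ackr3, Ccrl2, Relb and Adam17, so their differences carry no information on expression.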

How the data were processed

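The deposited log2 values cover 8 arrays and 35556 probe sets and were made by the authors by RMA in Affymetrix's Expression Console (from the submitters' processing notes, without versions). RMA corrects background, equalises arrays and summarises probes. No source used here gives the log base, which was taken as 2. Gene symbols came from the platform annotation: 21218 probe sets had 1 symbol, 1881 several and 12457 none listed. Differences were tested with limma 3.58.1 in R 4.3.3, 2-sided, calling probe sets at 0.05 after Benjamini and Hochberg's adjustment across all 21218. The test was tried first on simulated data, with differences larger than that of any member. That trial does not show how often smaller differences would be called. Python 3.11.15 with matplotlib 3.10.9 made the plots. The number of arrays limits the precision.

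The members, lists and background line were chosen with earlier results of these data known. Values are given for members above the line on at least 2 arrays, for 20 members named whatever their values (some as group means only), and for the 3 ligands and 3 receptors with the smallest unadjusted p in each comparison. Of each pathway list the 4 with the smallest p on arrays 3 and 4 are named. Of the marker lists, the B cell, dendritic cell, mast cell and endothelial lists had 0 members passing, with 2 of 5, 3 of 6, 3 of 6 and 3 of 6 members higher on arrays 3 and 4.

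Deviations from the group means correlated between arrays of the same number by 0.499, 0.507, 0.410 and 0.599, over the bound of 0.1 for pairing. The source is the data, not the labels, and arrays of other numbers in the same set correlated as much (0.411 to 0.581). Alternatives were a replicate block, the set as a block, other normalizations, filters, moderation and weights, all probe sets, the mean of probe sets and leaving out each array. A single fit of all arrays with a term for the set was added after seeing the data.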

Additional observations from a re-analysis of the deposited data

Results flagged for a closer look

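In 5 of 94 groups of 4 arrays (47 members in 2 groups) a single array stood apart from the other 3 beyond Dixon's 95% limit, and chance gives about 1 in 20. Ccl1 was high on rejecting array 3 (1.72, the others 0.96 to 1.04). Ccl22 was high on tolerant array 2 (1.01, the others 0.49 to 0.53), and Ccl25 on rejecting array 2 (0.82, the others 0.51 to 0.55). Cxcl1 was low on rejecting array 1 (1.17, the others all at 1.34). Ccr8 was high on tolerant array 4 (1.53, the others 0.59 to 0.75).

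For 3 members both sets of arrays had groups without overlap and opposite directions, with values under the background line throughout. That is 3 of 47 members, against 7.07% of all probe sets. Ccl17 had a difference of -0.32 on arrays 3 and 4 and 0.34 on arrays 1 and 2, Cx3cl1 had 0.13 and -0.24, and Ccr1 had -0.21 and 0.11. The difference between the sets did not pass as an interaction in limma for these 3 genes (adjusted p of 0.663, 0.739 and 0.782).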

How the results depend on the processing

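The count of members called was 0 in each comparison under every alternative run, the replicate block (0) and each array left out (0 to 0) included, and the block changed no call of a member. The lowest adjusted p of a named member was 0.0954, for Ccl5 on arrays 3 and 4. Over all probe sets, limma's calls on arrays 3 and 4 went from 11 to between 0 (without tolerant replicate 3 or 4, or with all probe sets tested) and 81 (1 fit of all arrays, an alternative chosen after seeing the data). Of 53 named differences under 761 alternatives in all, 30 changed sign, with neither value called. Restricting to probe sets above the line on at least 2 arrays left 6 ligands and 2 receptors, with median differences of 0.135 and -0.0971 over all 8 arrays and 0.420 for ligands on arrays 3 and 4. Ccl3 and Ccl8 entered it only through tolerant arrays, so these ligand medians support nothing, and without these 2 they were 0.0528 and 0.0808. On arrays 1 and 2 it left 0 members, so no value was had. Leaving out each array moved the ligand medians from -0.0253 to 0.0438 over all arrays, -0.0024 to 0.123 on arrays 3 and 4 (the highest without rejecting replicate 3, and 0.0652 without tolerant replicate 3) and -0.0425 to 0.0420 on arrays 1 and 2. The receptor medians went from -0.0424 (without rejecting replicate 1) to 0.0541, -0.0263 to -0.0009, and -0.106 (without rejecting replicate 1) to 0.0455. With the 95th percentile as the line, 20 ligands and 7 receptors were above it on at least 2 arrays, against 48.2% of all genes. The causes were not tested. Signal limits the rest: differences at background, in 21 ligands and 12 receptors on all arrays, carry no information on expression.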
